A study of Homo sapiens with 2 samples.

Results

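The 814 tallest peaks called for tagged YAP in a human mammary epithelial line are described here, out of 9393 peaks in all (8.67%). They are the peaks whose summit height in the authors' peak list was 40 or more, and they are called tall peaks. The other 8579 peaks are called lower peaks. The height is the authors' own score at the summit, with no unit given, so it was used only to choose, describe and rank peaks within this list. The members were chosen by this height, so their heights are a description and support nothing.

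The peaks came from chromatin immunoprecipitation sequencing (ChIP-seq), in which DNA bound by a protein is recovered with an antibody and sequenced. The cells were MCF10A, a non-transformed mammary epithelial line that the labels also list under a breast cancer cell type. They expressed Flag-tagged YAP-5SA, an active mutant of YAP whose LATS phosphorylation sites are changed to alanine. The series holds 1 Flag ChIP library and 1 input DNA library from this line, with no replicate and no library from cells without the mutant. The input library was not analysed here. The labels used here do not say which promoter drove the transgene or whether the cells were 1 clone or a pool. A peak list holds no expression values, so the labelled cell type was not checked against marker genes.

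YAP is a transcriptional co-activator and the main output of the Hippo pathway, a kinase cascade that restrains tissue growth. When LATS kinases phosphorylate YAP it is held in the cytoplasm or degraded. Unphosphorylated YAP enters the nucleus, where it has no DNA-binding domain of its own and reaches chromatin chiefly through the TEAD transcription factors. YAP and TEAD are known to occupy many sites far from promoters, often beside AP-1 factors, and in mammary epithelium YAP activity is linked to growth and cell plasticity. Whether the tall peaks hold TEAD or AP-1 letters, and which genes lie near them, was not analysed here, because no genome or annotation of the build of the list, hg19, was used. Regions are therefore named by hg19 position, 1-based, and no sequence is printed.

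The tall peaks formed the upper tail of 1 continuous distribution. Their heights ran from 40 to 100, with a median of 46 and an interquartile range of 42 to 52. The lower peaks had a median of 23 and an interquartile range of 19 to 28. Of the tall peaks, 550 (67.6%) had a height of 40 to 49, 176 (21.6%) of 50 to 59, 64 (7.86%) of 60 to 69 and 24 (2.95%) of 70 or more. Over the whole list, 264 peaks (2.81%) reached 50 and 88 (0.937%) reached 60. No gap in the heights marked the threshold. Just inside it, 88 peaks had a height of 40 and a median width of 632.5 bp. Just outside it, 87 peaks had a height of 39 and a median width of 648 bp. The tall peaks covered 0.601 Mb, which was 9.97% of the sequence covered by the list.

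**Figure D1:**
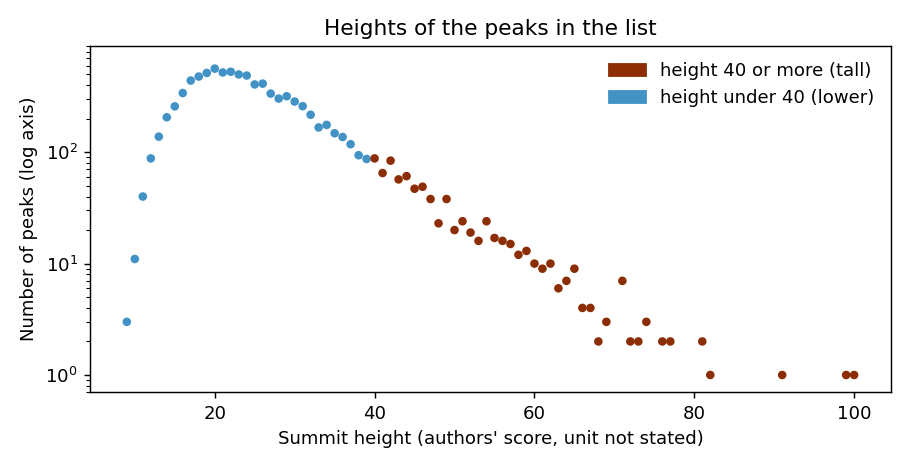
Number of peaks (log axis) at each summit height (the authors' score, unit not stated), as 1 point per height with at least 1 peak. Brown points are the 814 tall peaks and blue points the 8579 lower peaks, and the counts pass through the threshold without a gap, with 87 peaks at 39 and 88 at 40.

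Tall peaks were broader than lower ones. Their median width was 686.5 bp (95% binomial interval of the median 678 to 696), with an interquartile range of 598 to 787 bp. Lower peaks had a median of 604 bp (600 to 607) and an interquartile range of 515 to 701 bp, so the ranges overlapped widely. The median was larger for tall peaks on all 23 chromosomes, by 43.5 to 123 bp. Width was read from the same peak call as the height, so this is a description and was not tested.

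Among tall peaks the median width was 678 bp at heights 40 to 49, 703 bp at 50 to 59, 716 bp at 60 to 69 and 846 bp at 70 or more. The last value rests on 24 peaks and has an interval of 706 to 927 bp. Below the threshold the order was not the same throughout. Peaks of height 30 to 39 had a median width of 642 bp and those of 20 to 24 had 582 bp, while the lowest class, 9 to 14, had 654 bp.

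**Figure D2:**
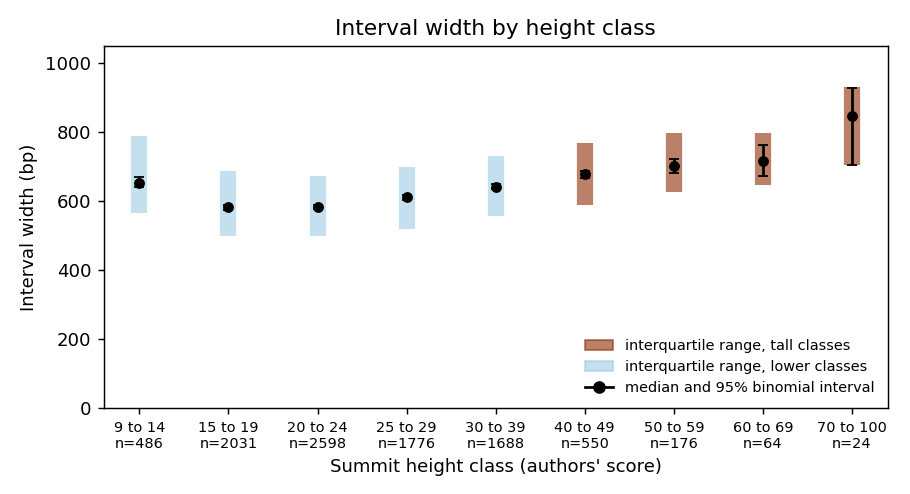
Interval width (bp) in each class of summit height, with the number of peaks under each class. Thick bars are interquartile ranges, points are medians and whiskers are 95% binomial intervals of the median; the median is 582 bp at heights 20 to 24 and 846 bp at 70 to 100.

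Seen from the other side, tall peaks made up 1.68% of the 416 intervals under 400 bp and 6.005% of the 2548 intervals from 500 to under 600 bp. They made up 14.8% of the 1260 intervals from 700 to under 800 bp and 27.8% (95% Wilson interval 17.6 to 40.9) of the 54 intervals of 1500 bp or more. The share did not rise at every step, since it was 12.8% among the 796 intervals from 800 to under 1000 bp. Some tall summits sat in narrow intervals. The narrowest tall peak, chr17:62379549-62379855, was 307 bp wide with a height of 40. Another, chr1:94293944-94294280, was 337 bp wide with a height of 49. At the other end, chr5:167791088-167793675 was 2588 bp wide with a height of 49, and chr1:145113471-145115477 was 2007 bp wide with a height of 63.

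The summits of most tall peaks sat near the middle of their interval. The median distance from the middle was 43.2 bp in tall peaks and 42.5 bp in lower peaks, and the intervals of these medians (39.5 to 46.5 and 41.5 to 43.5 bp) overlapped. The 83 tall peaks of 1000 bp or more were less centred. In these the median distance was 227 bp, or 19.1% of the width, against 38.5 bp and 5.73% in the 731 narrower tall peaks. In 11 of the 83 (13.3%) the summit was more than 25% of the width from the middle. The same was true of 23.1% of the 411 lower peaks of that width. The tall peak chr3:134045585-134047545 is an example, with a height of 53, a width of 1961 bp and a summit 32.05% of the width from the middle.

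Tall peaks were found on all 22 autosomes and on X, but not in equal shares. The share of peaks that were tall ran from 5.94% on chromosome 13 to 15.7% on chromosome 22, against 8.67% in the whole list. Heights were not corrected for DNA copy number, so a share is not by itself a measure of binding. Chromosome 22 had 19 tall peaks among 121 (95% Wilson interval 10.3 to 23.2%), and chromosome 20 had 53 among 355 (14.9%, 11.6 to 19.01%). On these 2 chromosomes the interval lay above the share of the whole list. On chromosome 2, with 50 of 780 (6.41%, 4.90 to 8.35%), it lay below. This did not hold at a threshold of 50, where chromosome 2 had 2.82% and the whole list 2.81%. On the other 20 chromosomes the interval included the share of the whole list, and no allowance was made for comparing 23 of them. Chromosome 13 was the only one without a peak of 60 or more, with a tallest peak of 59.

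**Figure D3:**
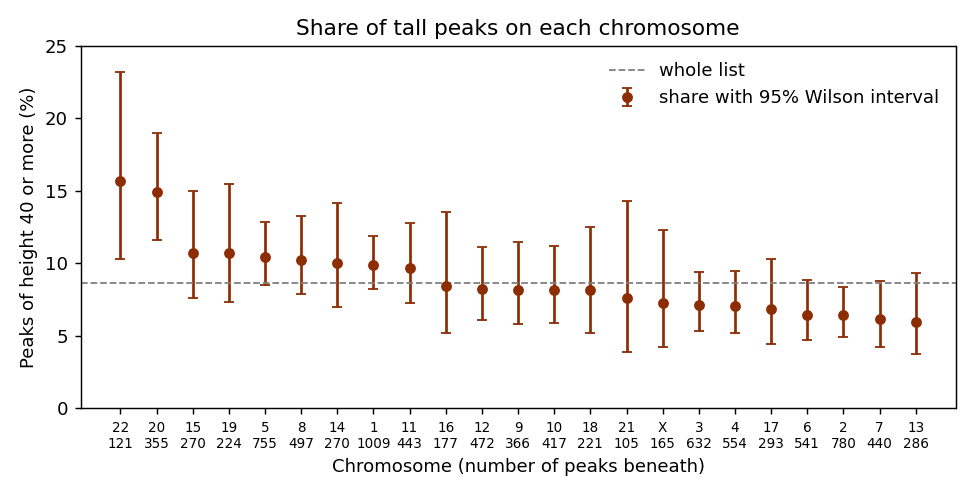
Share of peaks with a height of 40 or more (%) on each chromosome, ordered from highest to lowest, with the number of peaks under each name. Points are shares, whiskers 95% Wilson intervals and the dashed line the 8.67% of the whole list; the intervals of chromosomes 22 and 20 lie above the line and that of chromosome 2 below it.

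By length, chromosome 20 came first, with 0.906 tall peaks per Mb. The length was counted between the outermost summits, without the longest stretch that held no peak. Chromosome 22 followed with 0.633, and the whole list had 0.299. Peaks of any height came to 6.07 per Mb on chromosome 20, the most of any chromosome, and 4.03 on chromosome 22. Chromosome X had 0.086 tall peaks per Mb, with 12 tall peaks, and the fewest peaks of any height, 1.18 per Mb. The share of its peaks that were tall was 7.27% (4.21 to 12.3%), an interval that includes the share of the whole list. On chromosome 20 the share was 15.7% (9.39 to 24.98%) among the 83 peaks with no other summit within 100 kb and 14.7% (11.0 to 19.4%) among the 272 with at least 1. On the chromosomes other than 20 and 22 the same shares were 7.08% and 9.04%.

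Over the whole list, tall peaks lay closer to other peaks than lower peaks did. The nearest summit of any height was a median of 40 kb away from a tall peak (95% binomial interval of the median 32.6 to 46.2) and 57.3 kb from a lower peak (54.9 to 60.2). Another summit within 10 kb was found for 192 tall peaks, or 23.6% (20.8 to 26.6), and for 19.2% of lower peaks (18.3 to 20.01). The difference was 4.42 percentage points (95% interval 1.51 to 7.57). Without chromosomes 1, 5, 8, 10 and 20 it was 6.97 points (3.23 to 11.07), with shares of 24.9% and 17.98%. On those omitted chromosomes taken alone, tall and lower peaks had nearly equal shares, so the difference of the whole list was not seen there. These chromosomes were set apart after the data were seen. Within 50 kb, over the whole list, the shares were 55.4% and 47.0%, a difference of 8.37 points (4.78 to 11.9). At 1 Mb nearly every peak had a neighbour, and the shares were 99.3% in both classes. These intervals cover counting error only and treat peaks as independent, which neighbours are not.

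A second tall peak was more often near a tall peak than near a lower one. Within 10 kb the share was 4.18% (3.004 to 5.78) for tall peaks and 2.30% (2.0 to 2.64) for lower peaks. Within 100 kb it was 15.8% and 11.7%, a difference of 4.11 points (1.66 to 6.86). Within 1 Mb it was 58.5% and 49.5%, a difference of 9.01 points (5.43 to 12.5). Tall peaks also had more neighbours of any height. The mean number was 1.67 against 1.35 within 100 kb and 10.3 against 9.03 within 1 Mb. Whether tall neighbours were more frequent beyond this crowding was not tested. The single nearest neighbour of a tall peak was usually a lower one. It was itself tall for 8.91% of peaks of height 40 to 49, near the 8.67% of the list. The share was 11.9% (7.94 to 17.6%) at heights 50 to 59 and 12.5% (6.47 to 22.8%) at 60 to 69. In the classes below 40 the share ran from 7.58% to 9.24%. For the 24 peaks of 70 or more the nearest neighbour was tall in 7 (29.2%, 14.9 to 49.2%), and 2 of these 7 are each other's neighbour.

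**Figure D4:**
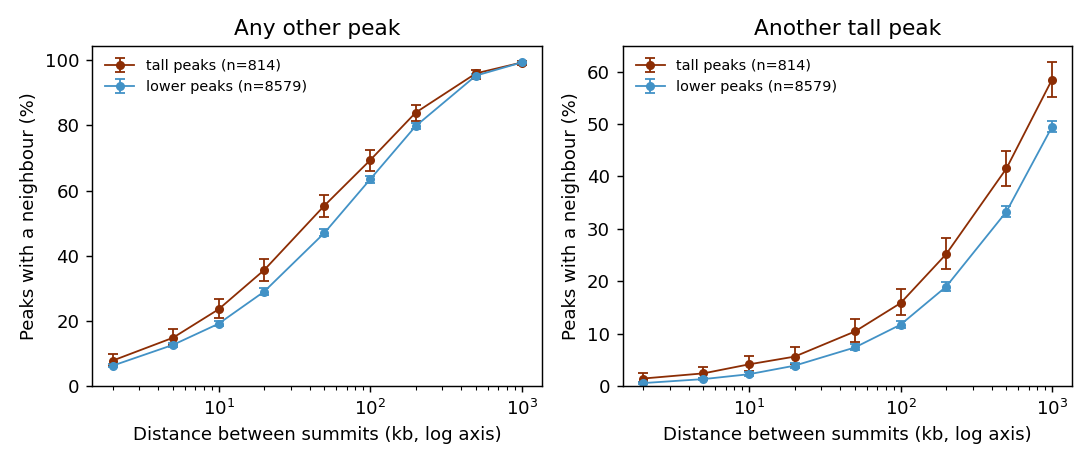
Share of peaks (%) with any other summit (left) or another tall summit (right) within a given distance (kb, log axis), for 814 tall peaks (brown) and 8579 lower peaks (blue). Points are shares and whiskers 95% Wilson intervals; at 50 kb the left panel shows 55.4% against 47.0%, and at 1 Mb the right panel shows 58.5% against 49.5%.

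The share of tall peaks was higher where peaks were crowded. Among the 3389 peaks with no other summit within 100 kb, 7.38% (6.54 to 8.31) were tall. The share was 8.44% with 1 other, 8.83% with 2, 9.67% with 3, 12.9% with 4 and 11.6% with 5 or 6. Among the 116 peaks with 7 to 11 others it was 18.1% (12.2 to 26.1), which was 10.7 percentage points (4.71 to 18.8) above that of the lone peaks. Chromosomes 5 and 8 supplied 13 of the 21 tall peaks in this last class, and 29 and 14 of its 116 peaks. Without chromosomes 1, 5, 8, 10 and 20 the share was 6.62% with no other summit and 13.95% (6.56 to 27.3) with 7 or more, where 6 of 43 peaks were tall. The difference was then 7.33 points, with an interval of -0.14 to 20.7 that includes 0.

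The very tallest peaks differed in their surroundings. The highest of all, chr19:3116252-3116834 with a height of 100, was a narrow peak of 583 bp whose nearest summit was 488.8 kb away. The second, chr10:73526371-73527417 with a height of 99, was 1047 bp wide, and 22 other summits lay within 1 Mb of it, 6 of them tall. The third, chr20:60936194-60937782 with a height of 91, was 1589 bp wide and had 3 other summits within 100 kb, none of them tall. In the fourth, chr20:21706454-21707107 with a height of 82, the interval was 654 bp wide and the nearest summit 116.7 kb away. So 2 of these 4 had no other summit within 100 kb, and the nearest summits of the others were 6.98 and 11.01 kb away.

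The next heights belonged to chr10:73839941-73840878 and chr10:99334158-99335047, both at 81. The former had a peak of 74 at 1.28 kb, and the latter a peak of 34 at 34.4 kb. A height of 77 was reached by chr1:144989173-144990099, whose nearest summit was itself tall, with a height of 62 at 48.2 kb. It was also reached by chr7:28080772-28081623, whose nearest summit had a height of 23 at 4.75 kb. At 76, chr3:58546434-58547012 had no other summit within 100 kb, while chr5:148292323-148293204 had 11, of which 4 were tall. Peaks of nearly the same height thus stood in both sparse and crowded stretches.

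Among the 24 peaks of 70 or more, 5 had no other summit within 100 kb and 7 had a tall one. They lay on 12 chromosomes, and their widths ran from 579 to 1665 bp. The most distant from any other peak was chr12:26243819-26244591, with a height of 74 and its nearest summit 595.5 kb away. The closest to another was chr5:149853431-149854187, also with a height of 74, beside a peak of height 23 at 0.992 kb. Other peaks in this class were chr19:2540549-2541409 and chr10:74523780-74524605 at 73, and chr8:127591888-127592714 and chr1:183062809-183063648 at 72. A height of 71 was reached by 7 peaks, among them chr11:69251705-69252406, which had another tall peak, of height 41, at 16.5 kb. Another, chr1:247578560-247579739, was 1180 bp wide and had no other summit within 100 kb. Another of the 7, chr1:85992724-85993346, had 8 other summits within 100 kb, none of them tall.

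Most tall peaks stood apart from one another. Consecutive tall peaks on a chromosome were a median of 1.60 Mb apart, with an interquartile range of 0.469 to 4.61 Mb. At the near end, 21 pairs had intervals at most 12.5 kb apart, and they lay on 13 chromosomes. Their summits were 1024 bp to 12.9 kb apart, and in 20 of the 21 pairs no lower peak lay between them. The closest pair was chr3:174046951-174048557, with heights of 45 and 40. In chr22:39570520-39572686 the heights were 51 and 58 at 1440 bp, and in chr8:131509758-131512111 both were 41 at 1456 bp. The partners could also be unequal: in chr20:54797153-54805405 the heights were 66 and 40.

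Intervals at most 200 bp apart may be parts of 1 enrichment, which was not tested. There were 78 such pairs in the list. In 2 of them both peaks were tall, on chromosome 10 (81 and 74) and chromosome 5 (76 and 57). In 13 a tall peak stood beside a lower one, whose height ran from 18 to 38 with a median of 26. Of tall peaks 2.09% (1.31 to 3.32) belonged to such a pair, and of lower peaks 1.62% (1.37 to 1.91), so the intervals overlapped.

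When tall peaks with intervals at most 100 kb apart were joined, 129 of the 814 (15.8%) fell into 54 groups, and 685 remained single. For comparison, 11.7% of lower peaks had a tall summit within 100 kb. Whether 54 groups are many for 814 peaks of this list was not tested. Of the 54 groups, 13 held 3 or more tall peaks. They lay on chromosomes 1, 3, 5, 8, 10, 19 and 20, with 3 of them on chromosome 5. Chromosome 5 held 8.04% of all peaks and 9.71% of tall peaks, and whether its groups exceed these shares was not tested. Heights in the groups were not corrected for DNA copy number. The largest group, chr5:148237471-148443260, held 6 tall peaks over 205.8 kb. In order along the chromosome their heights were 44, 76, 57, 45, 46 and 58, and 6 lower peaks of height 13 to 39 lay among them. Of these, 5 stood in a row between the tall peaks of 45 and 46.

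Groups of 4 tall peaks were found at 5 places. In chr10:73733975-73842578 the heights were 42, 42, 81 and 74, with no lower peak between them. This was also the longest run of tall peaks, uninterrupted by a lower one, on any chromosome. In chr8:128821439-128931782 they were 59, 56, 44 and 54, with 3 lower peaks of height 23 to 27 among them. In chr5:167715191-167793675 they were 42, 58, 46 and 49, and the last was the widest tall peak of the list. On chromosome 1, the group from 204164284 to 204289148 had heights of 49, 43, 40 and 42, and that from 201230619 to 201444809 had 44, 43, 45 and 42. The chromosome 1 groups thus held no peak of 50 or more, while the other 4 groups drawn with them each did.

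**Figure D5:**
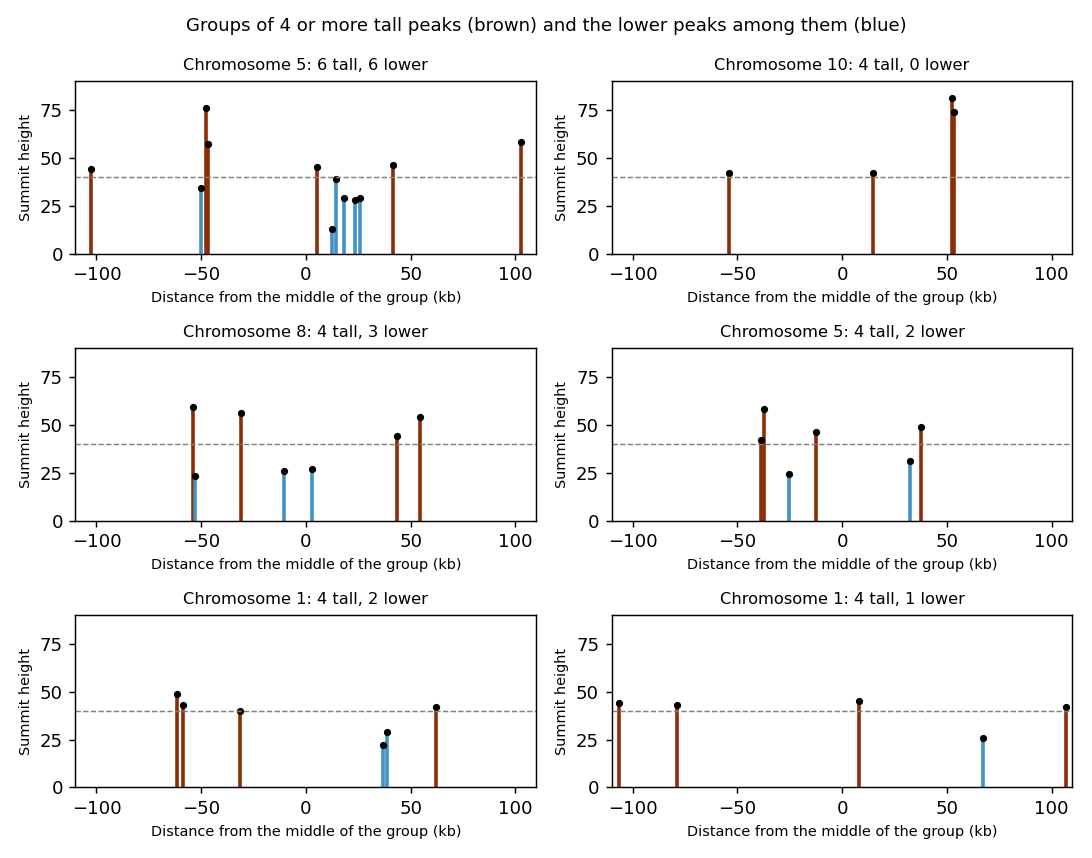
Summit height (the authors' score) of each peak in the 6 groups with 4 or more tall peaks, against distance from the middle of the group (kb). Brown lines are tall peaks, blue lines lower peaks and the dashed line the threshold of 40; the first panel holds 6 tall and 6 lower peaks, and the chromosome 10 panel 4 tall and no lower peaks.

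The remaining 7 groups held 3 tall peaks each. In chr19:2462806-2541409 the heights were 53, 46 and 73, with 2 lower peaks of height 20 next to the last. In chr8:129188567-129228577 they were 65, 41 and 42. In chr20:55287010-55385279 they were 46, 54 and 51, with no lower peak among them. The group chr5:172199198-172383085 was the one most mixed with lower peaks: its tall peaks of 56, 49 and 46 stood among 7 lower peaks of height 18 to 38. The others were chr3:30534165-30624065, chr20:22743147-22809130 and chr19:47552606-47626107, whose tallest peaks were 58, 53 and 49.

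Counted in fixed windows of 1 Mb, tall peaks occurred in 619 of the 2375 windows that held any peak. In 478 of these there was 1 tall peak and in 107 there were 2. At least 5 were found in 7 windows, led by chromosome 5 from 148 to 149 Mb with 6 tall among 22 peaks. On chromosome 1, the windows from 151 to 152 Mb and from 201 to 202 Mb each had 5 tall among 10. On chromosome 20 from 55 to 56 Mb, 4 of 6 peaks were tall. Many peaks in a window did not always come with tall ones. With 8.67% of the whole list tall, some windows of 10 peaks without a tall one are to be looked for. Whether the count below departs from that share was not tested. Of the 105 windows with 10 or more peaks, 27 had none, among them chromosome 5 from 142 to 143 Mb, with 20 peaks up to a height of 38, and chromosome 1 from 172 to 173 Mb, with 17 peaks up to 37.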

How the data were processed

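Per the submitters' processing notes, BWA 0.6.1, MACS and the build hg19 were used. How MACS was run (version, threshold, control, duplicates) is not given in the sources used here. A summit track and an interval track make up the deposited list, per the file headers. The score deposited by the authors in the summit track, a whole number for all 9393 peaks, is the height. Both tracks were joined by line order, and each of the 9393 summits fell inside the interval it was joined to. Positions deposited by the authors were shifted to 1-based starts.

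All 814 members were kept, with no filter. The members and lists were chosen with earlier results of these data known. Read depth is unknown. With 1 ChIP library there is no replicate, peaks are not replicates, and no p-value is given. Wilson intervals (95%) accompany shares, and intervals of medians come from binomial order statistics. Intervals of differences combine the intervals of both sides. All cover counting error only. The counting was tested on simulated data. Peaks named were the 20 tallest, fixed by rule, with ties at a height of 71 broken by chromosome name and position. Others were chosen after their values were seen. Work used Python 3.11.15, numpy 2.4.6, pandas 2.3.3, scipy 1.17.1 and matplotlib 3.10.9.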

Additional observations from a re-analysis of the deposited data

How the results depend on the processing

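No paired analysis was possible because each group is 1 library, which also leaves no replicate to omit. At thresholds of 35, 50 and 60 the list held 1398, 264 and 88 tall peaks against 814, by construction. The difference in median width was 82.5 bp, and 102 bp at a threshold of 50. The difference in the share with another summit was 4.42 points within 10 kb and 8.37 points within 50 kb. Joining intervals at most 200 bp apart left 9315 peaks, 812 of them tall. Joining kept the differences in width and in neighbours within 10 kb, and the ratios of chromosomes 20, 22 and 13 to the rest, inside the intervals of the main values. A threshold of 50 did so for these ratios. The other alternatives, and joining for the ratios, were chosen after seeing the data. Leaving out chromosomes 1, 5, 8, 10 and 20 gave 81 bp for width, 6.97 points for neighbours within 10 kb, and 7.33 points for crowded against lone peaks, against 10.7. Distances between interval edges gave 4.78 points for neighbours within 10 kb. No direction reversed in the settings run. Neither chromosome 2 nor the omitted chromosomes taken alone were among these settings, and in both the main pattern did not hold. At a threshold of 50 the share on chromosome 2 was no longer below that of the whole list. On the omitted chromosomes tall and lower peaks had nearly equal shares with a neighbour within 10 kb. Alternatives that need hg19 sequence or gene positions (motifs, transcription start sites, gene lists) were not run. Unknown depth and the single library limit every value.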

Other observations

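Tall peaks far from any other peak were also found. No other summit lay within 500 kb of 33 tall peaks (4.05%, 95% Wilson interval 2.90 to 5.64) and of 4.74% of lower peaks (4.31 to 5.21). The most isolated, chr6:98260658-98261213 with a height of 40, was 1.93 Mb from the nearest summit. It was followed by chr15:22487869-22488602 with a height of 43 at 1.91 Mb and chr1:3459289-3460510 with a height of 47 at 1.65 Mb. The 33 had a median height of 42 and reached 74.

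Long stretches of the list held no tall peak. On chromosome 7, 76 consecutive lower peaks ran over 29.5 Mb from 121838948 to 151333701. On chromosome X, the last 43 peaks, from 109070531 to 153964385, were all lower. Only 6.14% of the 440 peaks on chromosome 7 and 7.27% of the 165 on X were tall. Runs of 73 lower peaks were found on chromosomes 2 and 5. Whether any run was longer than such shares give was not tested.

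The recorded summit positions of tall and lower peaks differed in their spacing. Summits of 90.2% of tall peaks and 79.4% of lower peaks fell on multiples of 32 bp, and 9.83% and 19.8% lay 16 bp from such a multiple. The remaining 69 summits all belonged to lower peaks. They were a small part of the 8579 lower peaks, and at the same share only a few would fall among 814 tall peaks.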
